A study of Mus musculus with 6 samples.

Results

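The sodium-potassium pump (Na,K-ATPase) genes Atp1b1, Atp1b2, Atp1b3, Fxyd1 and Fxyd5 were followed in cultured mouse fat cells with and without added miR182. These 5 genes were selected on the measured difference between the same samples described here, with Atp1b3 picked as one of the deepest losses, so their differences are given as a description and without a test. They are 5 of the 22609 genes with a read count, and all 5 were among the 13117 genes with enough reads to be tested. They belong to the 11 beta and FXYD genes of the pump counted here, of which 6 were not selected. The cells came from the stromal vascular fraction of inguinal white fat (iWAT, the main subcutaneous depot of the mouse) of male C57BL6 mice aged 3 weeks per the labels, and had been differentiated in culture. The control group (n = 3) received a control vector and the miR182 group (n = 3) received miR182, both by electroporation per the labels, whereas the study's methods describe a lipid-delivered mimic and a somewhat different age. No label says whether the 3 samples of a group came from separate animals or preparations, so p-values measure only the spread between these samples.

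The Na,K-ATPase moves sodium out of the cell and potassium in, at the cost of ATP, and so keeps the ion gradients that drive many other transporters. Its alpha subunit carries the ATPase and ion sites, its beta subunit is a glycoprotein that folds with alpha and takes it to the cell surface, and small FXYD proteins sit beside them and tune the affinity for ions. In fat cells insulin is known to stimulate the pump. The question asked here is how the mRNA levels of the beta and FXYD subunits stood to each other when miR182 was added.

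Poly(A)-selected mRNA was sequenced on strand-marked libraries, with 25869810 to 28796712 reads on genes per sample. Levels are given in CPM, the reads of a gene scaled to a common library total after TMM correction, and a gene was called where it changed by at least 1.5-fold with an adjusted p under 0.05 (edgeR quasi-likelihood test, Benjamini-Hochberg over all genes tested). By this rule 977 of 13117 genes were called, 258 higher and 719 lower with miR182, and the median log2 difference over all genes tested was -0.004. Mir182 itself was listed at 0 reads in all 6 samples. Poly(A) selection does not capture mature miRNA, so the counts do not check the overexpression. The adipocyte markers Adipoq (928 ± 20.6 CPM in control and 676 ± 56.0 CPM with miR182, SD, n = 3) and Plin1 (663 ± 4.80 and 636 ± 51.5 CPM) were abundant in both groups, and so was the fibroblast collagen Col1a1 (19250 ± 610 and 18640 ± 386 CPM).

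The mature miR-182-5p is shown because its seed, bases 2 to 8 in capitals, sets the 7-base letters searched for in the pump genes. The second sequence is shown because the mature sequence that the study's methods print for miR-182-5p begins with the seed of the miR-30 family, here represented by mmu-miR-30a-5p. Which of them the cells received was not tested, and both seeds were searched. Both sequences are from RefSeq (GRCm38.p6, 5′ to 3′), mmu-miR-182-5p from chromosome 6, 30165962 to 30165986 on the minus strand, and mmu-miR-30a-5p from chromosome 1, 23272274 to 23272295 on the plus strand.
mmu-miR-182-5p: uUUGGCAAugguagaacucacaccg
mmu-miR-30a-5p: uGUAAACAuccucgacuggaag
The DNA letters that pair with these seeds are TTGCCAA for miR-182-5p and TGTTTAC for the miR-30 family.

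Atp1b3 encodes the beta3 subunit and was the most abundant beta gene of these cells (chromosome 9, 96332655 to 96364442, minus strand, GRCm38). It had 2636, 2815 and 2687 reads in the control samples and 958, 791 and 830 reads with miR182. On the CPM scale these were 104, 108 and 103 in control and 32.82, 30.02 and 29.40 with miR182. The groups lay far apart, with means of 104.8 ± 2.63 and 30.7 ± 1.82 CPM (SD, n = 3), so that 29.3% of the control level was left. The log2 difference was -1.77 with a standard error of 0.045, which ranked 28 from the lowest among the 13117 genes tested. Atp1b3 was the only called member (1 of 5), where 7.45% of all genes tested were called and 5.48% were called lower, and nothing is read from that comparison because the members were selected on this contrast.

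Fxyd1 encodes phospholemman, the FXYD protein best known as a brake on the pump in heart and muscle that phosphorylation relieves (chromosome 7, 31051678 to 31057199, minus strand). The control samples had 1462, 1512 and 1382 reads and the miR182 samples 1027, 1018 and 1222 reads. In CPM the control samples stood at 57.4, 57.9 and 52.9 and the miR182 samples at 35.2, 38.6 and 43.3. The groups did not overlap, and the mean went from 56.1 ± 2.73 to 39.0 ± 4.07 CPM (SD, n = 3), or 69.6% of control. The log2 difference of -0.52 (standard error 0.064) was smaller than the 0.585 that the 1.5-fold rule asks for. With each sample left out in turn it ranged from -0.60 to -0.45, and without miR182 replicate 3, the highest of its group, Fxyd1 passed the rule at -0.60.

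Fxyd5 encodes dysadherin, a FXYD protein with a long extracellular part that is also known to weaken cell adhesion (chromosome 7, 31032722 to 31042481, minus strand). Its reads were 800, 876 and 697 in control and 824, 662 and 671 with miR182, and its levels were 31.4, 33.5 and 26.7 CPM against 28.2, 25.1 and 23.8 CPM. The groups overlapped, since miR182 replicate 1 lay above control replicate 3. The means were 30.6 ± 3.50 and 25.7 ± 2.29 CPM (SD, n = 3), with a log2 difference of -0.25 (standard error 0.081). The spread within the groups, 11.5% of the mean in control and 8.89% with miR182, was larger than the 3.56% and 3.73% that counting error alone gives.

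Atp1b1 encodes beta1, the most widespread beta subunit, and was a minor gene in these cells (chromosome 1, 164437109 to 164458355, minus strand). It had 137, 114 and 108 reads in control and 132, 129 and 124 reads with miR182, or 5.38, 4.36 and 4.14 CPM against 4.52, 4.90 and 4.39 CPM. The groups overlapped fully, at 4.63 ± 0.663 and 4.60 ± 0.262 CPM (SD, n = 3). The log2 difference was -0.01 with a standard error of 0.12, and its sign turned positive in part of the fits that left out a sample (range -0.08 to 0.11). Atp1b1 shares 575 exon bases with Nme7 on the opposite strand, and whether the counting told the strands apart is not given in the sources used here.

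Atp1b2 encodes beta2, first known as an adhesion molecule of glia, and was close to the lower end of what these libraries can measure (chromosome 11, 69599736 to 69605942, minus strand). It had 14, 17 and 15 reads in control and 21, 19 and 20 reads with miR182, or 0.550, 0.651 and 0.575 CPM against 0.719, 0.721 and 0.708 CPM. The groups did not overlap, with means of 0.592 ± 0.0526 and 0.716 ± 0.00690 CPM (SD, n = 3). Counting error alone would give a spread of 25.5% and 22.4% of the mean, so the narrow groups are tighter than the reads can fix, and the log2 difference of 0.27 had a standard error of 0.25. A difference of this size could not be told from none at this depth.

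**Figure D1:**
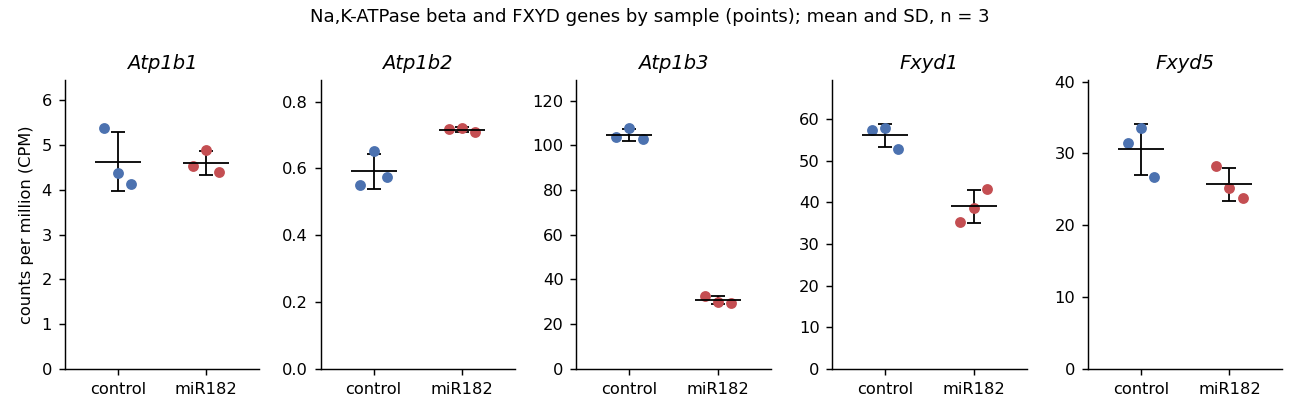
Levels of the 5 selected genes in CPM (vertical axes from 0, each with its own scale), with 1 point per sample and the mean and SD of the 3 control and 3 miR182 samples. Atp1b3 falls from about 104.8 to 30.7 CPM with no overlap, Fxyd1 is lower in all miR182 samples, Fxyd5 and Atp1b1 overlap, and Atp1b2 lies under 1 CPM in all samples.

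Among the 5 genes, 3 therefore had groups that did not overlap (Atp1b3 and Fxyd1 lower, Atp1b2 higher), where 54.8% of all genes tested did not overlap in either direction. With the adjusted p alone and no fold limit, 3 members counted as lower (Atp1b3, Fxyd1 and Fxyd5) and none as higher. Of the 13117 genes tested, 3087 were lower and 3037 higher by that rule, or 46.7% in either direction. Nothing is read from either count, because the genes were selected on this contrast. The log2 differences spanned -1.77 to 0.27 with a median of -0.25, so the members did not share 1 size. The only positive value, that of Atp1b2, had a standard error of 0.25, so a split in direction is not shown.

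The beta and FXYD genes that were not selected, Atp1b4, Fxyd2, known as the gamma subunit of the kidney pump, Fxyd3, Fxyd4, Fxyd6 and Fxyd7, had at most 8 reads in any sample, and none of the 6 was tested. Fxyd6 had 4, 8 and 7 reads in control and 2, 2 and 4 reads with miR182. Fxyd2 had 1, 7 and 7 reads against 1, 2 and 2, and Fxyd4 had 8, 3 and 8 reads against 5, 3 and 5. Atp1b4 and Fxyd3 were listed at 0 in all 3 miR182 samples, and had at most 3 reads and 1 read in control. Of the 11 beta and FXYD genes, therefore, the 5 selected were also the ones with enough reads for a test.

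**Figure D2:**
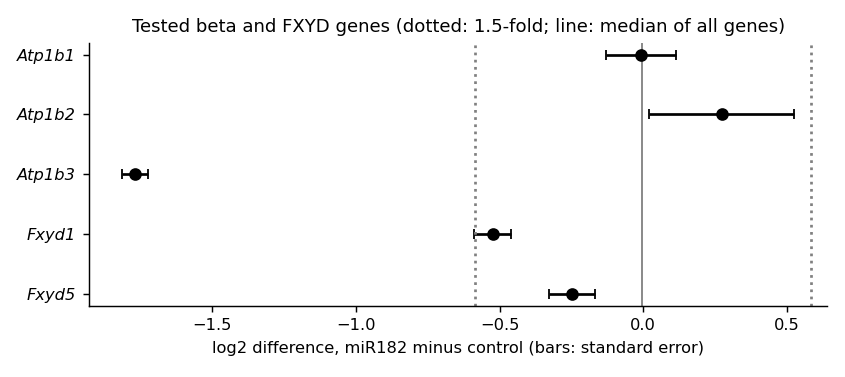
Log2 difference, miR182 minus control (horizontal axis), of the 5 selected genes, with bars for the standard error, dotted lines at 1.5-fold and a line at the median of all genes. Atp1b3 at -1.77 lies beyond the 1.5-fold line, Fxyd1 at -0.52 lies just inside it, and Atp1b2 at 0.27 has the widest bar.

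To compare genes with each other, levels were divided by the length of each gene's exons (CPM per kilobase). On this scale Atp1b3 stood at 43.3, 45.1 and 43.1 in control and at 13.7, 12.6 and 12.3 with miR182, whereas Atp1b1 stood at 1.502 ± 0.215 and 1.494 ± 0.0850 and Atp1b2 at 0.145 ± 0.0129 and 0.175 ± 0.00169 (SD, n = 3). The order Atp1b3, Atp1b1, Atp1b2 held in each of the 6 samples, with no overlap between neighbours. Of the summed beta level, Atp1b3 held 95.8%, 96.6% and 96.7% in control and 89.3%, 87.7% and 88.5% with miR182. The share of Atp1b1 went from 3.30% ± 0.485 to 10.3% ± 0.774 (SD, n = 3) while its own level stayed within its spread, so its larger share came with the smaller sum. Atp1b3 exceeded Atp1b1 by a factor of 29.6 ± 4.13 in control and 8.63 ± 0.726 with miR182 (SD, n = 3), so it was still the leading beta mRNA.

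The summed beta level was 45.2, 46.7 and 44.6 CPM per kilobase in control and 15.4, 14.3 and 13.9 with miR182. All 3 miR182 sums lay far below the control sums, with means of 45.5 ± 1.10 and 14.5 ± 0.759 (SD, n = 3). The mean difference of 30.97 matched the 30.98 lost by Atp1b3, and no gain of the other beta genes offset it. Protein was not measured in these files.

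**Figure D3:**
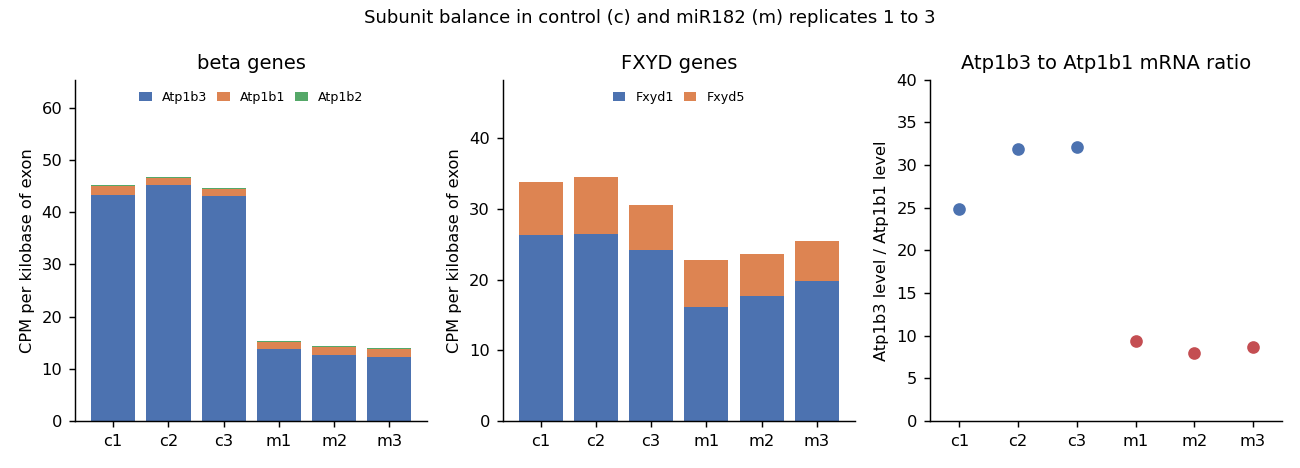
Stacked levels of the beta genes (left) and of Fxyd1 and Fxyd5 (middle) in CPM per kilobase of exon, and the ratio of the Atp1b3 to the Atp1b1 level (right), for control replicates (c1 to c3) and miR182 replicates (m1 to m3). The beta bars drop from about 45.5 to 14.5, nearly all of it Atp1b3, and the ratio goes from 29.6 to 8.63.

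Among the FXYD genes, Fxyd1 was the most abundant per length in all 6 samples, at 25.7 ± 1.25 CPM per kilobase in control and 17.9 ± 1.86 with miR182, against 7.29 ± 0.835 and 6.13 ± 0.545 for Fxyd5 (SD, n = 3). Fxyd1 held 76.7%, 75.6% and 77.5% of the summed FXYD level in control and 69.0%, 74.0% and 76.5% with miR182, and these ranges overlapped. The summed FXYD level itself went from 33.5 ± 1.99 to 24.4 ± 1.33 CPM per kilobase (SD, n = 3). The annotated lengths of the FXYD genes vary widely, from 2186 bases for all exons of Fxyd1 to 668 for its longest transcript. With that transcript as the length the Fxyd1 level was 84.0 in control and 58.4 CPM per kilobase with miR182, and its share was 88.5% ± 0.535 and 86.5% ± 2.26 (SD, n = 3). Fxyd5, Fxyd7 and Fxyd1 lie next to each other on the same strand of chromosome 7, and Fxyd7 had 2 to 8 reads per sample beside at least 662 for Fxyd5 and 1018 for Fxyd1.

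The 3′-UTRs of the beta and FXYD genes were then searched for the seed letters, as a description of sequence that the choice of genes did not use. In the longest annotated 3′-UTR of each gene (GENCODE M21, GRCm38), Atp1b3 was the only one of the 11 genes that held TTGCCAA on the transcript strand, and it held it at 2 places. The first match covers bases 280 to 286 of the 869 bases after the stop codon (chr9:96333238-96333244, minus strand) and is followed by an A, which makes it an 8-base match. The second match covers bases 390 to 396 (chr9:96333128-96333134) and is followed by a C. Both are shown with the bases around them, 5′ to 3′ on the transcript strand, with the match in capitals.
Atp1b3 first match: tttgtgtgtaaTTGCCAAacgtctaaagc
Atp1b3 second match: acaatggtaccTTGCCAAcatcgagtgac
The letters TGTTTAC, which pair with the miR-30 seed, were in none of the 11 longest 3′-UTRs.

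Among the 12523 genes tested that had a 3′-UTR in the annotation, 12.5% held TTGCCAA at least once and 1.92% (241 genes) held it at 2 or more places, and 16.4% held TGTTTAC. The median log2 difference was 0.01 over the 10955 genes with no TTGCCAA, -0.06 over the 1327 genes with 1 and -0.15 over the 241 genes with more. Differences at least as low as that of Atp1b3, itself counted, were seen in 14, 8 and 4 genes of these classes, or 0.128%, 0.603% and 1.66% of each. That limit is the value of a gene picked for its deep loss, so nothing is read from these shares. Such classes were not counted for TGTTTAC. The genes of a class differ in length and base composition of their 3′-UTRs, and a match is a stretch of letters and no measurement of binding. The absence of the letters in Fxyd1 says nothing of what acted on this gene.

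**Figure D4:**
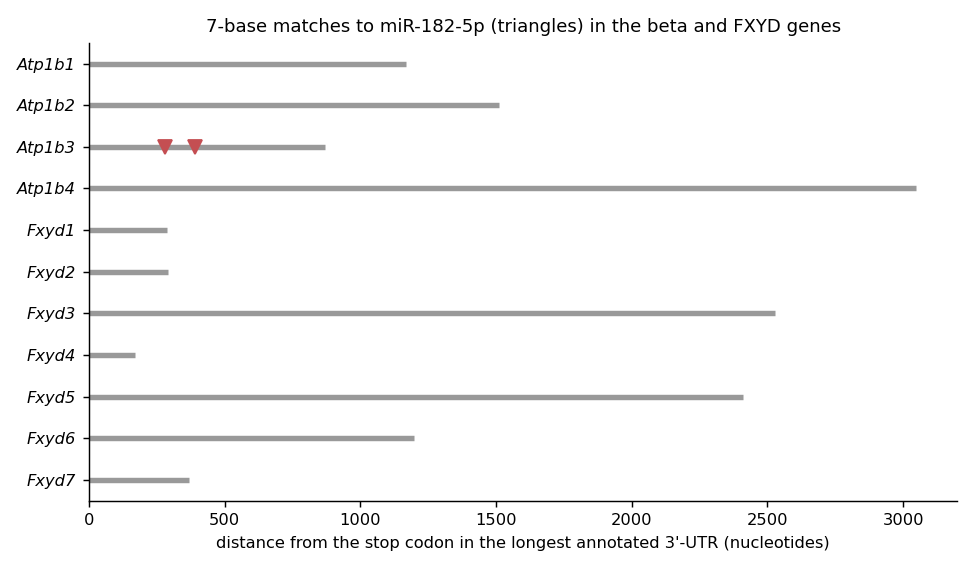
Longest annotated 3′-UTR of each of the 11 beta and FXYD genes as a grey bar (horizontal axis in nucleotides from the stop codon), with triangles at 7-base matches to the miR-182-5p seed. Only Atp1b3 carries triangles, at nucleotides 280 and 390 of its 869, although several other genes have longer bars.

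For each of the 5 genes, the genes with the most similar profile over the 6 samples were found by the root-mean-square distance of their log2 levels after each was centred on its own mean, among 13116 other genes. Near Atp1b3 lay Vamp3, a SNARE protein of recycling vesicles (distance 0.0339, from 104.4 to 31.2 CPM) and the scavenger receptor gene Scara5 (0.0727, from 56.1 to 16.1 CPM). In CPM, which is not divided by gene length, Vamp3 stood close to Atp1b3 in both groups. The nearest to Fxyd1 were Gm6484, Acacb, an acetyl-CoA carboxylase, and Agpat2, an enzyme of triglyceride synthesis, at distances of 0.0258 to 0.0323. Acacb went from 178.7 to 127.2 CPM and Agpat2 from 550 to 392 CPM. Fxyd5 lay nearest to Fastkd2, Akr1c14 and Orc6 (0.0551 to 0.0596), Atp1b1 to Hyls1, Hook2 and Sssca1 (0.0311 to 0.0402) and Atp1b2 near Ift81 and Pwp1 (0.0163 and 0.0192). With 6 samples in 2 groups the likeness to a gene such as Atp1b3 mostly reflects a like difference between the groups. Atp1b1 and its 3 neighbours hardly differed between the groups (log2 differences -0.03 to 0.05), so their likeness reflects the scatter of single samples.

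Other genes of ion transport were counted as whole lists, to be read beside the 7.45% of all genes tested that were called (5.48% lower) and the 46.7% that passed the adjusted p alone. Of the 13117 genes tested, the adjusted p alone was passed by 3037 higher and 3087 lower. Of the other P-type ATPases and their partners, 24 of 36 were tested, 1 was called higher and none lower, 13 and 3 passed the adjusted p alone, and the median log2 difference was 0.15, beside -0.004 over all genes. The called gene was the copper pump Atp7b, with 2, 5 and 3 reads in control and 19, 18 and 15 reads with miR182 (0.128 ± 0.0576 and 0.622 ± 0.0800 CPM, SD, n = 3, log2 difference 2.23, standard error 0.40, edgeR adjusted p = 0.000408). Of the sodium-coupled transporters, which use the gradient that the pump makes, 27 of 38 were tested and 0 were called by edgeR, DESeq2 or limma-voom, with 8 higher and 4 lower by the edgeR adjusted p alone, 14 with an unadjusted p under 0.05 and a median of 0.03. Their log2 differences lay between -0.41 and 0.45, so none reached 1.5-fold.

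Of the potassium channels and cotransporters, 20 of 38 were tested, and 3 were called higher and 3 lower, where 7.45% of all genes tested were called. By the adjusted p alone 6 were higher and 7 lower, where 46.7% of all genes tested passed in either direction. The median was -0.12. Slc12a7, the potassium-chloride cotransporter KCC4, rose from 24.6 ± 0.727 to 39.3 ± 0.314 CPM (SD, n = 3, log2 difference 0.68, edgeR adjusted p = 5.57e-08). The channel genes Kcnk2 and Kcnj2 also rose, by 0.77 and 0.61 on the log2 scale (edgeR adjusted p = 0.00575 and 0.00649). Both were low, at 0.914 and 2.38 CPM in control. Abcc9, the sulfonylurea receptor SUR2 of ATP-sensitive potassium channels, fell from 15.2 ± 0.567 to 8.002 ± 0.878 CPM (SD, n = 3, log2 difference -0.92, edgeR adjusted p = 6.62e-07). Kcnj8, the pore that pairs with SUR2, fell by 1.17 and the channel gene Kcnk5 by 1.42 on the log2 scale, both from less than 1 CPM in control (edgeR adjusted p = 0.0158 and 0.00315). Kcnj2 fell under the fold limit without control replicate 1 (0.57), control replicate 3 (0.58) or miR182 replicate 1 (0.48). Kcnj8 was not called without control replicate 3, miR182 replicate 2 or miR182 replicate 3 (edgeR adjusted p = 0.0508 to 0.0696) nor by DESeq2 (adjusted p = 0.106).

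Of the partners and regulators of the pump, 30 of 32 were tested, none was called higher and 2 were called lower. By the adjusted p alone 8 were higher and 7 lower, and the median was -0.01. Ppp1ca, a catalytic subunit of protein phosphatase 1, fell from 279 ± 4.47 to 173 ± 2.10 CPM (SD, n = 3, log2 difference -0.69, edgeR adjusted p = 1.4e-10). Ppp1r1a, an inhibitor of the same phosphatase, fell from 17.5 ± 1.54 to 8.34 ± 0.959 CPM (SD, n = 3, log2 difference -1.07, edgeR adjusted p = 3.93e-07). The kinase Sgk1, which is known to raise pump activity, was higher by the adjusted p but not the fold limit (60.0 ± 2.20 and 76.5 ± 2.18 CPM, SD, n = 3). The kinase gene Sgk3 went the other way, also by the adjusted p alone (9.63 ± 1.64 and 7.05 ± 0.472 CPM, SD, n = 3, log2 difference -0.45).

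**Figure D5:**
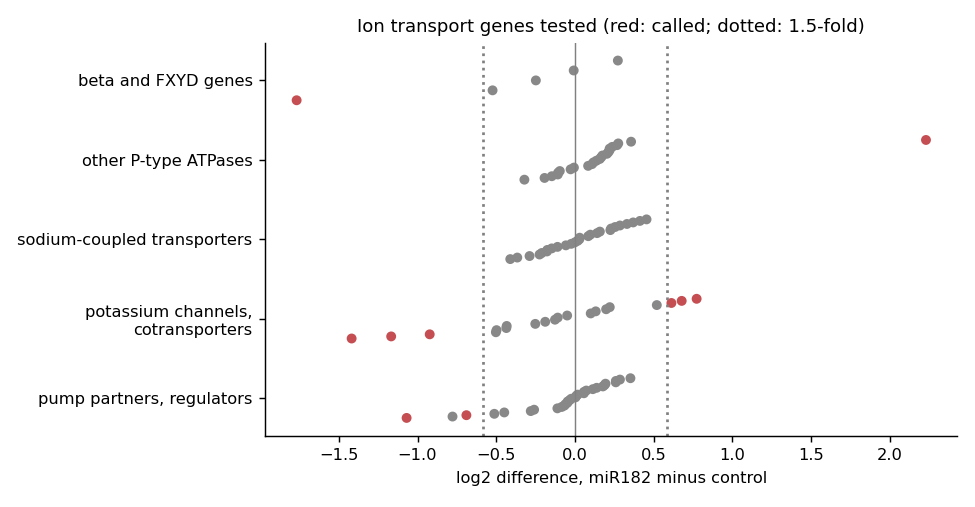
Log2 difference, miR182 minus control (horizontal axis), of the 5 selected genes and each tested gene of 4 lists of ion transport genes, with called genes in red and dotted lines at 1.5-fold. Most genes of the 4 lists lie between the dotted lines. Atp1b3, which was picked as one of the deepest losses, lies further to the low side than any gene of those lists.

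Many markers of the cell types in the culture also differed between the groups, where 7.45% of all genes tested were called and 46.7% passed the adjusted p alone. The latter were 3037 higher and 3087 lower of 13117 genes. Of 10 adipocyte markers, 2 were called lower (Fabp4 and Retn) and none higher, 8 were lower and 1 higher by the adjusted p alone, the median log2 difference was -0.44, and their summed level was 12490 to 13260 CPM in control and 8507 to 9632 CPM with miR182. Of 9 stromal markers 8 were tested, 4 were called lower and none higher, 6 were lower and 1 higher by the adjusted p alone, the median was -0.50, and the sum went from 40350 to 42160 CPM in control to 35400 to 36600 CPM with miR182. Single stromal markers differed widely, from -1.53 for Cd34 (17.7 ± 0.923 to 6.14 ± 0.338 CPM) and -0.86 for Pdgfra to -0.05 for Col1a1 and 0.19 for Thy1, the last higher by the adjusted p alone (edgeR, SD, n = 3). In bulk samples fewer cells of a type and less RNA per cell cannot be told apart, and the part of the cell mixture in the pump genes was not tested.

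The remaining marker lists ranged from abundant to nearly absent. Of 7 smooth muscle and mural markers 6 were tested and 0 were called by edgeR, DESeq2 or limma-voom, 4 were higher and 1 lower by the edgeR adjusted p alone and 5 had an unadjusted p under 0.05, with a sum of 3527 to 3699 CPM in control and 4218 to 4577 CPM with miR182. Of 7 skeletal muscle markers 3 were tested, 1 was called higher and none lower, and the median was -0.10. Acta1 was the called gene (18.5 ± 0.223 and 30.6 ± 2.19 CPM, SD, n = 3). Des and Tnnt3 were not called (log2 differences -0.10 and -0.14), and Myod1 and Ckm were at 0 in all samples. Of 7 glial markers, which bear on Atp1b2, 5 were tested, S100b was called lower (not without miR182 replicate 1, at -0.50) and none higher, Mbp was higher by the adjusted p alone, Sox10 had 8 to 17 reads, and the sum was 13.2 to 14.8 CPM in control and 13.3 to 16.4 CPM with miR182. Of 7 macrophage and leukocyte markers 4 were tested and Lyz2 was called lower by edgeR but not by DESeq2, Ptprc had at most 4 reads, and the sums of 14.4 to 15.6 and 12.4 to 15.7 CPM overlapped. Of 6 endothelial markers 3 were tested and 0 were called by edgeR, DESeq2 or limma-voom, 1 with an unadjusted p under 0.05, with sums of 3.22 to 3.33 and 3.11 to 4.22 CPM. The epithelial markers had at most 5 reads in a sample and the globin genes were at 0.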

How the data were processed

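For 3 control and 3 miR182 samples, the authors deposited whole-number counts of reads on each gene that were not normalised. The submitters' processing notes name bcl2fastq, TopHat2, HTSeq and the mouse build mm9. Their versions, the annotation and the strand setting of the counting are not given in the sources used here. Each list ends in 5 tally lines, which were kept out of library sizes and tests (reads outside genes or ambiguous came to 13.4% to 13.7% of them plus reads on genes). Alignments that were not unique, a tally of 19363264 to 21673840 per sample, are outside that percentage. They were not assigned to genes, so near-identical copies can lose reads.

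Counts were tested with edgeR 4.0.16 (R 4.3.3, glmQLFit and glmQLFTest, TMM factors, filterByExpr defaults, group as the only term, two-sided, Benjamini-Hochberg over 13117 genes), with cutoffs of 1.5-fold and an adjusted p of 0.05 as in the study. Fits were tested on simulated data with 200 changed genes. DESeq2 1.42.0, limma-voom 3.58.1, other size factors and filters, the replicate number as a block, other gene lengths and leaving out each sample were alternatives. Same-numbered samples did not deviate together (r = -0.18, -0.042 and -0.075), so no shared deviation by number was seen. Whether same-numbered samples came from the same preparation is not given and cannot be told from these values. Replicates of a group differed by more than counting error.

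Lengths, positions and 3′-UTRs came from GENCODE M21 (GRCm38, not the authors' build), matched by symbol for 22191 of 22609 genes, 1907 of them by an older symbol. CPM profiles were compared as log2(CPM + 0.1). The 5 genes and all lists were chosen with earlier results of these data known. The rule for names was the 5 genes, all other beta and FXYD genes, called genes of the ion lists (at most 4 per list and direction, smallest p first) and the 3 nearest profiles per gene. Sgk1, Sgk3, the marker genes and the overlapping genes were named beside this rule after their values were seen.
Some genes that this rule covers are not reported here.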

Additional observations from a re-analysis of the deposited data

How the results depend on the processing

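Depth limits low genes such as Atp1b2, Atp7b, Kcnj8 and Kcnk5, with at most 21, 19, 16 and 24 reads, and groups of 3 limit all values. The log2 differences of the 5 genes kept their size under each count model, scaling, filter and thinning tried (Atp1b3 -1.78 to -1.76, Fxyd1 -0.53 to -0.52), as did their call. Without miR182 replicate 3 Fxyd1 was called as well, at -0.60. With single samples left out Atp1b3 ranged from -1.82 to -1.73 and Fxyd5 from -0.34 to -0.18, and 902 to 1011 genes were called. The replicate number as a block called 925 genes, of which 921 were among the 977 without it, and left the Atp1b3 difference at -1.77. That block changed no call of the 5 genes, and whether same-numbered samples belong together is not given. Without a fold cutoff 6124 genes passed, and with a 2-fold cutoff 280 (60 higher, 220 lower). With at least 10 reads asked of every sample 0 in place of 1 of the other P-type ATPases were called by edgeR, because Atp7b was no longer tested. Under that filter 4 in place of 6 potassium channels and cotransporters were called, because Kcnj8 and Kcnk5 were no longer tested. Without division by length Atp1b3 held 95.2% of the beta reads in control and 85.2% with miR182, and Fxyd1 held 64.1% and 59.8% of the FXYD reads. Fxyd1 held 88.5% and 86.5% of the FXYD level with the longest transcript as length, and 72.9% and 69.1% with the median length of coding transcripts, which was chosen after seeing the data, as was the thinning of libraries. DESeq2 and the libraries whose omission changed calls of Kcnj2 and Kcnj8 are given beside those genes, and Lyz2 was not called by edgeR without control replicate 1 or 3 or miR182 replicate 2 or 3 (adjusted p = 0.0798 to 0.113).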
